A study of Mus musculus with 203 samples.

Results

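10 mouse genes whose transcription ERK signalling is known to raise, most of which encode brakes on the same pathway, are described here in macrophages treated with IL4 and depleted of the histone demethylase KDM1A. They are the phosphatase genes Dusp1, Dusp4, Dusp5 and Dusp6, the inhibitor genes Spry1, Spry2, Spred1 and Spred2, and the transcription factor genes Etv5 and Ets2. They were found by symbol and are 10 of the 25094 genes in the RNA-seq table of RAW264.7 cells (RAW cells), and 10 of the 16478 genes in that of bone marrow-derived macrophages (BMDMs). The set was chosen by the fold changes of Etv5 and Ets2, which were lower in Gps2 knockout (KO) than in wild-type (WT) BMDMs without IL4 in a comparison made by the authors. That comparison is not used here, and every value below comes from the RAW libraries, whose earlier results were also known when the set was chosen.

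ERK is the last kinase of a chain that runs from cell surface receptors through Ras, Raf and MEK. When it is active, immediate early genes and ETS factors are transcribed, and so are brakes on the chain: dual-specificity phosphatases remove the activating phosphates from MAP kinases, and Sprouty and Spred proteins hold back the step from Ras to Raf. In macrophages the chain lies downstream of CSF1, GM-CSF and Toll-like receptors, while IL4 is best known for signalling through STAT6.

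The RAW264.7 line derives from mouse macrophages and is labelled as of BALB/c origin. Both lines compared carried a lentiviral short hairpin RNA (shRNA) and had been selected with puromycin as stable lines, with a hairpin against GFP as control (shGFP) or a single hairpin against Kdm1a (shKDM1A). Each line was left without IL4 or given 20 ng/ml of IL4 for 6 h, which makes 4 groups of 4 libraries. The study states in general that its experiments used biological replicates, while the labels do not say whether the libraries of a group came from separate cultures, so the p-values measure the spread between these samples, which may in part be technical.

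Library size ran from 17554721 to 27782568 tags, and no gene whose value varied held the same value in any pair of libraries. All values below are on the log2 scale as deposited. The transformation behind it is not given in the sources used here. On this scale genes near the bottom varied little over all libraries, as with Cd3e (-2.266 to -2.265) and Spry1 (1.16 to 1.21). Whether the transformation draws low values together was not tested. Each difference, and each percent computed from one, thus holds on that scale only and may understate the change of a low gene. A change was called where limma, fitted over the 12905 genes that reached a value of 1 in at least 4 libraries, gave a Benjamini-Hochberg adjusted p under 0.05. Of 8 macrophage markers, 7 reached a value of 5 and Mertk stayed under 0. Their summed level was 17.4 to 17.5 in shGFP control, 17.2 in shGFP IL4, 17.7 in shKDM1A control and 17.6 to 17.7 in shKDM1A IL4 libraries, a sum in which Lyz2 (16.35 to 17.18) weighs most. Of the 7 markers tested, 5 were higher and 2 lower with shKDM1A in both comparisons, against 38.2% and 40.7% of all genes called, and with IL4 2 were higher and 2 lower in shGFP and 3 higher and 2 lower in shKDM1A cells, against 26.9% and 27.1%. Among markers of fibroblasts, T cells, B cells, dendritic cells and neutrophils, Lck alone passed 5, at 5.71 to 5.92, while Cd3g, Ms4a1, Col1a2, Col3a1, Dcn, S100a9 and Ly6g were listed at 0. Lck was 0.09 higher with shKDM1A in both comparisons. Of the 2 dendritic cell markers tested, 1 was lower with shKDM1A in the comparison with IL4, against 40.7% of all genes called. The part of these marker differences in the results was not tested.

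Kdm1a, the target of the hairpin, stood at 11.21, 11.23, 11.13 and 11.17 in the shGFP control libraries and at 10.36, 10.32, 10.23 and 10.29 in the shKDM1A control libraries. The groups did not overlap, and the difference was -0.88 (SE 0.03, limma adjusted p = 5.62e-13), a level 45.8% lower. With IL4 the difference was -0.79 (SE 0.03, limma adjusted p = 2.20e-12). Of 8 genes listed as IL4 targets, 6 were tested and all 6 were higher with IL4 in both lines, against 13.1% and 13.6% of all genes, led in shGFP cells by the mannose receptor gene Mrc1, which rose by 1.32 (SE 0.03, limma adjusted p = 3.07e-14). The response differed between the lines for 4 of the 6, with 1 higher and 3 lower in shKDM1A cells, against 6.13% of all genes, and that of Mrc1 differed by -0.82 (SE 0.05, limma adjusted p = 3.57e-08). Chil3 and Retnla were listed at 0 in all libraries.

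The 250 bases before the outermost annotated start of each gene were read from the mm9 genome and searched on both strands for the sites of factors that ERK or IL4 act through. The sites were TGACGTCA (cyclic AMP response element, CRE), TGANTCA (AP-1), CCGGAAG (ETS), TTC and GAA with any 4 bases between them (STAT6) and the CArG box of the serum response element. None of these sites overlaps another by its letters within the sequences shown. The windows of 4 genes are printed 5′ to 3′ on the strand of the gene, with matches in capitals: Dusp1, Dusp5 and Etv5 because they alone among the 10 held a match, and Ets2 because it changed most with IL4.
Dusp1: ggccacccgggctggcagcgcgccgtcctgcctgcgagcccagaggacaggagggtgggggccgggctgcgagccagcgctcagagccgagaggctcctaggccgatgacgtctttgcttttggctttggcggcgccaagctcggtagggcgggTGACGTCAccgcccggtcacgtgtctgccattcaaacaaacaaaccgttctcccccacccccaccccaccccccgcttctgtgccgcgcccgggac
Dusp5: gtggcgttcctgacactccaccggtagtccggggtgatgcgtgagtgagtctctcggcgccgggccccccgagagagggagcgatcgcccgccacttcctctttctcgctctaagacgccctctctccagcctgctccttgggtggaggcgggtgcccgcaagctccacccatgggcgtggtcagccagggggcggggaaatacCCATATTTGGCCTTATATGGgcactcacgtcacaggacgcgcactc
Etv5: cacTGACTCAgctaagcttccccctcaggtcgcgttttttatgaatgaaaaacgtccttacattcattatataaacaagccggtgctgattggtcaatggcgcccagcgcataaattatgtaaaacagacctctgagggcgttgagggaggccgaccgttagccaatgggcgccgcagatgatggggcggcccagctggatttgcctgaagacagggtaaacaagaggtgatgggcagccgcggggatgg
Ets2: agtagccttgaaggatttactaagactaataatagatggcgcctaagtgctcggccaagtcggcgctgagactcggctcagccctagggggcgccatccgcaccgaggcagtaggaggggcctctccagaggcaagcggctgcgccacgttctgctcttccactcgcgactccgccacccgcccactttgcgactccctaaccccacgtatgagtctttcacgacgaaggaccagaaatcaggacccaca
The Dusp1 window is mm9 chr17:26645465-26645714 on the minus strand, and its CRE lies 96 to 89 bases before the start. The Dusp5 window is chr19:53603349-53603598 on the plus strand, where a pair of CArG boxes stands end to end, CCATATTTGG at 46 to 37 and CCTTATATGG at 36 to 27 bases before the start. The Etv5 window is chr16:22439793-22440042 on the minus strand, with TGACTCA at 247 to 241 bases before the start. The Ets2 window, chr16:95923432-95923681 on the plus strand, held no match. Its outermost start lies 332 bases from the start of the RefSeq transcript counted, a distance of 313 for Dusp4 and 149 for Etv5. The bases between these starts were not searched.
Over 25015 windows of the same length, 1.85% held the CRE, 1.33% a CArG box, 6.36% the AP-1 site, 7.82% the ETS site and 5.72% the STAT6 site. No member held the ETS or the STAT6 letters in this window. GC content of the 10 windows ran from 53.2% to 70.8%, with a median of 54.0% over all windows.

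In mm9 the phosphatase genes lie at chr17:26642536-26645417 (Dusp1), chr8:35870664-35882948 (Dusp4), chr19:53603635-53616299 (Dusp5) and chr10:98725865-98730123 (Dusp6). The inhibitor genes lie at chr3:37538869-37543521 (Spry1), chr14:106291164-106296036 (Spry2), chr2:116946807-117008013 (Spred1) and chr11:19824445-19922600 (Spred2). Etv5 (chr16:22381386-22439643) and Ets2 (chr16:95924014-95942656) alone share a chromosome.

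The genes differed widely in level. On the scale of log2 value minus log2 transcript length in kb, Spred1 was highest in shGFP control cells at 10.83 ± 0.05 (SD, n = 4), above 92.5% of the genes tested, and it was followed by Ets2 at 9.82 ± 0.05 and Dusp4 at 9.45 ± 0.08. Spred2 (8.65 ± 0.05), Etv5 (8.13 ± 0.02) and Dusp6 (7.48 ± 0.06) came next, and Dusp1 (6.25 ± 0.07), Spry2 (5.93 ± 0.04) and Dusp5 (4.90 ± 0.05) were low. No neighbours in this order overlapped between libraries. Spry1 was last at -0.13 ± 0.02, above only 1.69% of the genes tested. All 10 genes passed the filter, Spry1 by little: its deposited values of 1.16 to 1.21 barely exceed the limit of 1, and under a limit of 5 the other 9 remain.

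**Figure D1:**
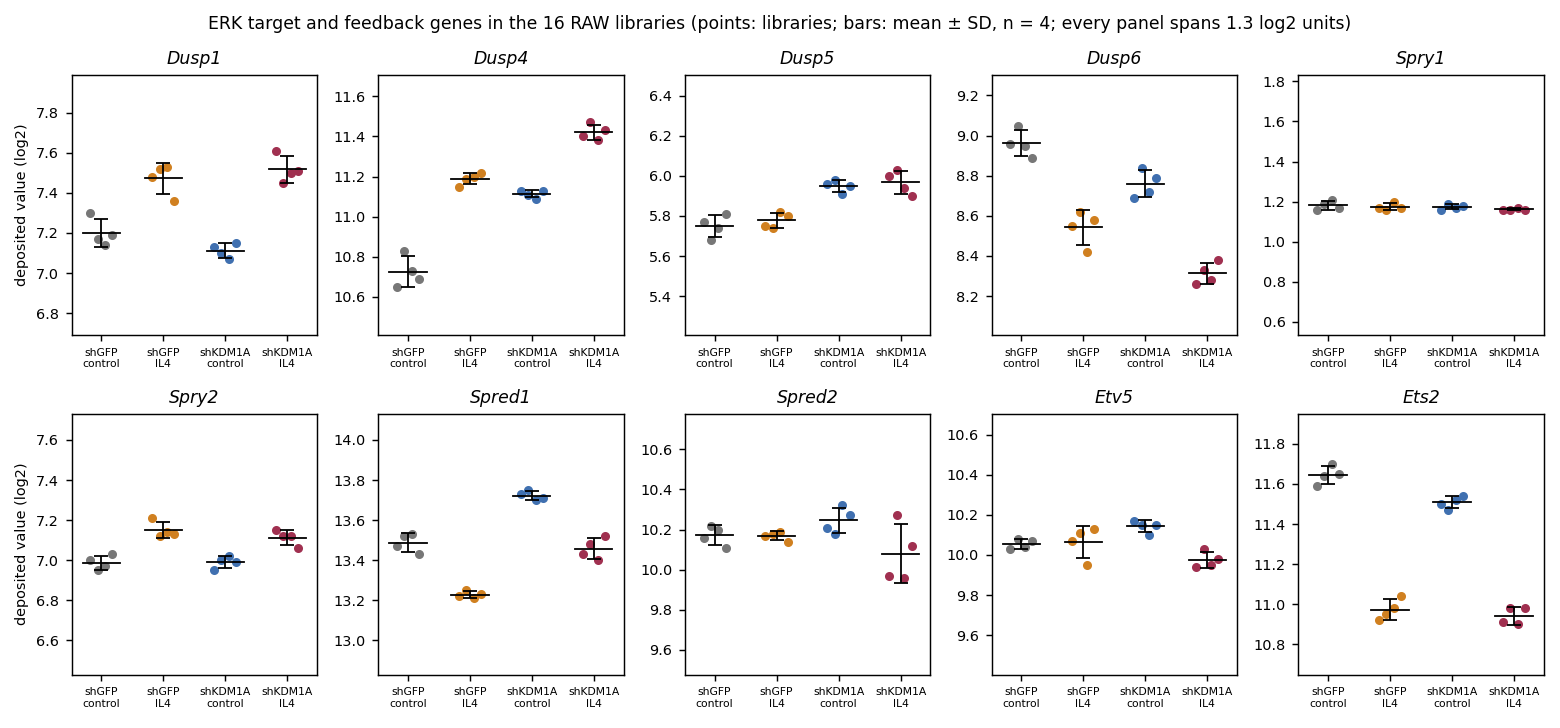
Deposited log2 values of the 10 genes in the 16 RAW libraries, by group on the x axis, with each point a library and the bars the mean ± SD (n = 4). Dusp4 steps up with IL4 and with shKDM1A, Dusp6 steps down with both, Ets2 falls with IL4 from about 11.6 to about 11.0, and Spry1 stays at 1.16 to 1.21 in all groups.

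The comparison of IL4 with control in shGFP cells asks how the set responds to the cytokine alone. The answer was mixed: Dusp1, Dusp4 and Spry2 rose, Dusp6, Spred1 and Ets2 fell, and Dusp5, Spry1, Spred2 and Etv5 did not pass the test. That is 6 of 10 genes, against 26.9% of all genes tested (13.1% higher and 13.7% lower), and the same 6 did not overlap between groups, against 28.3% of all genes. The median difference of the 10 genes was 0.00, as was that of all genes. In shKDM1A cells 8 of 10 passed, against 27.1% of all genes tested, with the same 3 higher (13.6% of all genes) and 5 lower (13.5%), since Spred2 and Etv5 joined Dusp6, Spred1 and Ets2. Here the groups of 7 genes did not overlap, against 25.7% of all genes.

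Ets2, an ETS factor that ERK phosphorylates and that acts downstream of CSF1 in macrophages, showed the largest difference of the set. It stood at 11.59, 11.64, 11.70 and 11.65 in shGFP control libraries and at 10.92, 10.95, 10.98 and 11.04 with IL4. The groups were far apart, with 0.56 between the nearest libraries. The difference was -0.67 (SE 0.03, limma adjusted p = 3.94e-11), a level 37.3% lower, and 25 of the 12905 genes tested had a more negative difference. In shKDM1A libraries Ets2 went from 11.50, 11.47, 11.52 and 11.54 to 10.91, 10.98, 10.90 and 10.98, a difference of -0.56 (SE 0.03, limma adjusted p = 4.49e-10). With IL4 both lines ended at nearly the same level, 10.97 ± 0.05 and 10.94 ± 0.04 (SD, n = 4).

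Dusp6, the cytoplasmic phosphatase specific for ERK, also fell. Its values were 8.96, 9.05, 8.95 and 8.89 in shGFP control and 8.55, 8.62, 8.42 and 8.58 in shGFP IL4 libraries, a difference of -0.42 (SE 0.04, limma adjusted p = 2.03e-06). In shKDM1A cells they went from 8.69, 8.84, 8.72 and 8.79 to 8.26, 8.33, 8.28 and 8.38, a difference of -0.45 (SE 0.04, limma adjusted p = 1.06e-06). In neither line did the groups overlap.

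Dusp4, a nuclear phosphatase of ERK, JNK and p38, moved the other way. In shGFP cells it rose from 10.65, 10.83, 10.73 and 10.69 to 11.15, 11.19, 11.20 and 11.22, by 0.47 (SE 0.03, limma adjusted p = 1.33e-08) or 38.1%. In shKDM1A cells it rose from 11.13, 11.11, 11.09 and 11.13 to 11.40, 11.47, 11.38 and 11.43, by 0.30 (SE 0.03, limma adjusted p = 2.76e-06). The shKDM1A control libraries thus began just below the level that the shGFP libraries reached with IL4.

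Dusp1, a nuclear phosphatase that acts above all on p38 and JNK and holds the CRE shown above, was at 7.30, 7.17, 7.14 and 7.19 in shGFP control and at 7.48, 7.52, 7.53 and 7.36 in shGFP IL4 libraries, a rise of 0.27 (SE 0.04, limma adjusted p = 0.000124). In shKDM1A cells it went from 7.13, 7.10, 7.07 and 7.15 to 7.61, 7.45, 7.50 and 7.51, a rise of 0.40 (SE 0.04, limma adjusted p = 2.10e-06). The groups were apart in both lines, by 0.06 and 0.29 between the nearest libraries.

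Of the 4 inhibitor genes, Spred1 fell and Spry2 rose with IL4 in shGFP cells, and Spry1 and Spred2 did not pass. Spred1, which with neurofibromin lowers active Ras, was at 13.47, 13.52, 13.53 and 13.43 in shGFP control and 13.22, 13.25, 13.21 and 13.23 in shGFP IL4 libraries, a difference of -0.26 (SE 0.03, limma adjusted p = 2.17e-06). Its difference in shKDM1A cells was -0.27 (SE 0.03, limma adjusted p = 1.57e-06). Spry2, an inhibitor of receptor tyrosine kinase signalling, rose from 7.00, 6.95, 6.97 and 7.03 to 7.21, 7.12, 7.14 and 7.13 in shGFP cells, by 0.16 (SE 0.03, limma adjusted p = 0.000131). In shKDM1A cells it rose by 0.13 (SE 0.03, limma adjusted p = 0.00146). Neither gene overlapped between control and IL4 in either line.

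Of the 10 genes, 4 showed no called response to IL4 in shGFP cells. The intervals of 1.96 SE each way show how large a difference on the deposited scale the libraries leave possible. The interval was -0.04 to 0.08 for Dusp5, -0.06 to 0.07 for Etv5, -0.10 to 0.11 for Spred2 and -0.04 to 0.03 for Spry1. For Dusp5 and Spry1 the response in shKDM1A cells was not called either, with intervals of -0.04 to 0.08 and -0.05 to 0.02. For Spry1, levels this low leave little room for any difference to be seen, so its intervals here and below do not bound the change of its transcript.

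Etv5, an ETS factor of the PEA3 group, was at 10.03, 10.08, 10.04 and 10.07 in shGFP control and 10.07, 10.11, 9.95 and 10.13 in shGFP IL4 libraries, which overlap. In shKDM1A libraries it went from 10.17, 10.15, 10.10 and 10.15 to 9.94, 10.03, 9.95 and 9.98, which do not overlap, a difference of -0.17 (SE 0.03, limma adjusted p = 0.00114). Spred2, a relative of Spred1, was at 10.21, 10.18, 10.32 and 10.27 in shKDM1A control and 9.97, 10.27, 9.96 and 10.12 in shKDM1A IL4 libraries. These overlap, since 1 IL4 library lay among the controls, and the difference was -0.17 (SE 0.05, limma adjusted p = 0.0292). The shKDM1A IL4 libraries stood in pairs by the median absolute difference over genes whose value varied. It was 0.029 between 1 and 3, 0.026 between 2 and 4 and 0.035 to 0.036 across these pairs. These libraries also deviated most from their group mean over the genes tested (SD 0.052 to 0.061, against 0.040 to 0.050 elsewhere). Spred2 was lower in 1 and 3, and what this split does to the calls was not tested. The call for Spred2 was lost without shKDM1A control library 3 (adjusted p = 0.0918) or 4 (0.0697), or without shKDM1A IL4 library 1 (0.0977) or 3 (0.102).

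**Figure D2:**
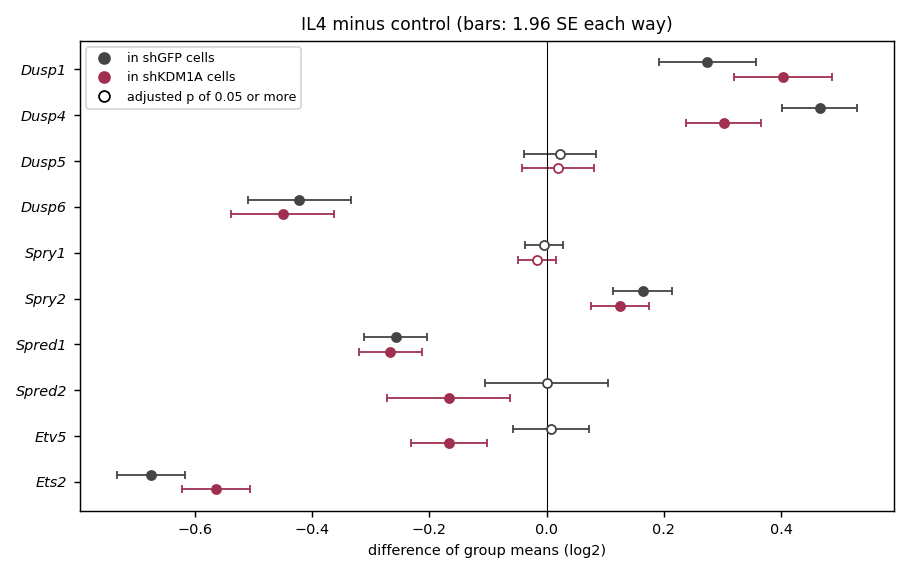
Difference between IL4 and control libraries on the log2 scale for each gene, in shGFP (grey) and shKDM1A cells (red), with bars of 1.96 SE each way and open points where the adjusted p was 0.05 or more. Ets2 (-0.67 and -0.56) lies farthest to the left and Dusp4 (0.47 and 0.30) and Dusp1 (0.27 and 0.40) farthest to the right, while Etv5 lies at 0.01 in shGFP and -0.17 in shKDM1A cells.

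The comparison of shKDM1A with shGFP asks how the set depends on KDM1A. Without IL4, Dusp4, Dusp5 and Spred1 were higher and Dusp6 and Ets2 lower in shKDM1A cells, and the other 5 genes did not pass. That is 5 of 10, against 38.2% of all genes tested (19.7% higher and 18.4% lower). Groups of 6 genes did not overlap, against 37.4% of all genes, the sixth being Etv5. With IL4, again 5 of 10 passed, against 40.7% of all genes tested (20.9% higher and 19.8% lower). Dusp4, Dusp5 and Spred1 were again higher and Dusp6 again lower, joined by Etv5, while Ets2 no longer differed by the test. Groups of 4 genes did not overlap, against 36.4% of all genes. Since the 2 lines are single stable lines, what belongs to the hairpin and what to the line cannot be told apart.

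Dusp4 gave the largest difference between the lines without IL4, 0.39 (SE 0.03, limma adjusted p = 6.89e-08), a level 31.1% higher, with 0.26 between the nearest libraries. With IL4 it was 0.23 (SE 0.03, limma adjusted p = 3.47e-05). Dusp4 was thus lowest in shGFP control, intermediate in the next pair of groups and highest in shKDM1A cells with IL4, at 11.42 ± 0.04 (SD, n = 4).

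Dusp5, a nuclear phosphatase specific for ERK whose window holds the CArG boxes, changed between the lines and not with IL4. It stood at 5.77, 5.68, 5.74 and 5.81 in shGFP control and 5.75, 5.74, 5.82 and 5.80 in shGFP IL4 libraries. In shKDM1A cells it stood at 5.96, 5.98, 5.91 and 5.95 without and 6.00, 6.03, 5.94 and 5.90 with IL4, above all shGFP libraries. The difference was 0.20 (SE 0.03, limma adjusted p = 0.000103) without and 0.19 (SE 0.03, limma adjusted p = 0.000122) with IL4.

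Spred1 was higher by 0.24 (SE 0.03, limma adjusted p = 3.02e-06) without IL4, at 13.73, 13.75, 13.70 and 13.71 in shKDM1A libraries, and by 0.23 (SE 0.03, limma adjusted p = 4.76e-06) with IL4, at 13.43, 13.48, 13.40 and 13.52. Both times the 2 lines did not overlap. Dusp6 was lower, with a difference of -0.20 (SE 0.04, limma adjusted p = 0.00183) without and -0.23 (SE 0.04, limma adjusted p = 0.00058) with IL4, again without overlap. For Dusp6 the 4 groups thus lay in the reverse order of Dusp4, from 8.96 ± 0.06 in shGFP control down to 8.31 ± 0.05 (SD, n = 4) in shKDM1A IL4 libraries.

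Ets2 was lower without IL4, with a difference of -0.14 (SE 0.03, limma adjusted p = 0.0013), a level 9.29% lower, and with IL4 the interval of the difference was -0.09 to 0.03. The difference of Etv5 was -0.09 (SE 0.03, limma adjusted p = 0.037) with IL4, in groups that overlap. This call was lost without any 1 of 6 of the 8 libraries compared, with adjusted p values of up to 0.121, and held without shGFP IL4 library 3 or shKDM1A IL4 library 2. Without IL4, Etv5 stood 0.08 higher in shKDM1A cells (SE 0.03, limma adjusted p = 0.0592), so that it did not pass although all 4 shKDM1A libraries lay above all 4 shGFP libraries. It passed without shKDM1A control library 3 (adjusted p = 0.0479).

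Dusp1, Spry2, Spred2 and Spry1 did not pass in either comparison of the lines. For Dusp1 the interval was -0.169 to -0.00199 without IL4, which leaves out 0 although the limma adjusted p was 0.131, and -0.04 to 0.13 with IL4, and for Spry2 it was -0.05 to 0.05 and -0.09 to 0.01. For Spred2 it was -0.03 to 0.18 without and -0.20 to 0.01 with IL4. The last of these would pass without shKDM1A IL4 library 2, at a difference of -0.15 (adjusted p = 0.00732).

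**Figure D3:**
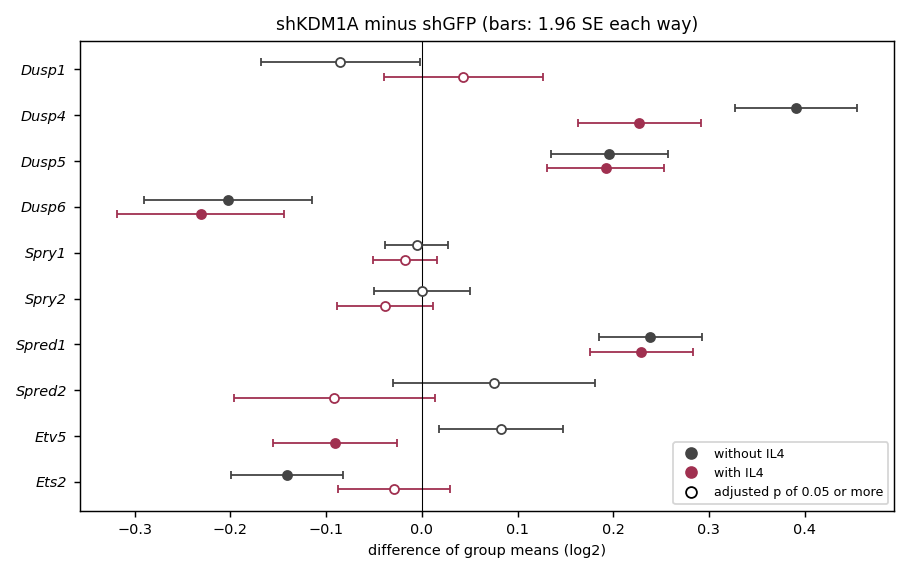
Difference between shKDM1A and shGFP libraries on the log2 scale for each gene, without IL4 (grey) and with IL4 (red), with bars of 1.96 SE each way and open points where the adjusted p was 0.05 or more. Dusp4, Dusp5 and Spred1 lie to the right of 0 in both conditions and Dusp6 to the left, while Etv5 lies at 0.08 without and -0.09 with IL4.

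Whether the response to IL4 itself differed between the lines was tested as the difference of the differences. Of the 10 genes, 2 passed, both with a lower response in shKDM1A cells, against 6.13% of all genes tested (3.56% higher and 2.57% lower). For Dusp4, whose rise was smaller in shKDM1A cells, the difference was -0.16 (SE 0.05, limma adjusted p = 0.0469), and for Etv5 the difference was -0.17 (SE 0.05, limma adjusted p = 0.0381). Both calls are marginal: that of Dusp4 held without shGFP control library 2, shGFP IL4 library 1 or shKDM1A IL4 library 2 and was lost without any 1 of the other 13 libraries, with adjusted p values of up to 0.0955. That of Etv5 held without shGFP control library 2, shGFP IL4 library 3, shKDM1A control library 3 or shKDM1A IL4 library 2 or 4 and was lost without any 1 of the other 11, with values of up to 0.0769. The intervals for the rest were -0.09 to 0.08 for Dusp5, -0.15 to 0.10 for Dusp6, -0.11 to 0.03 for Spry2, -0.09 to 0.07 for Spred1 and -0.06 to 0.03 for Spry1. Those of Dusp1 (0.01 to 0.25), Ets2 (0.03 to 0.19) and Spred2 (-0.32 to -0.02) left out 0 but gave adjusted p values of 0.218, 0.126 and 0.206 from limma. Spred2 would pass without shKDM1A IL4 library 2, at -0.23 (adjusted p = 0.0218).

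Across the 16 libraries the 10 genes did not move as a block. Dusp6 and Ets2 were the pair most alike (Pearson r = 0.91), followed by Dusp1 and Spry2 (r = 0.86), while Dusp1 and Ets2 (r = -0.91), Spry2 and Ets2 (r = -0.90) and Dusp4 and Dusp6 (r = -0.90) were opposed. The 16 points fall into 4 groups, so these values describe mainly the steps between groups. Over the same 16 libraries, the 3 genes most like Ets2 were Cybb, Slc6a12 and St3gal6 (r of 0.99 each), and those most like Dusp6 were Mpeg1, Alcam and Chst10 (0.98, 0.98 and 0.97). Most like Dusp4 were Angptl2, Ank and Pls3 (0.99, 0.98 and 0.98), most like Spred1 Gfod1, Rasgrp3 and Rab7b (0.99 each), and most like Dusp5 Snapc5, Rabgap1l and Tmem223 (0.96, 0.96 and 0.95). For Dusp1 they included Dgkz and Il4i1 (0.96 each), for Spry2 they were Tubgcp2, Il4i1b and Acp5 (0.94, 0.93 and 0.93) and for Spred2 Man1a2, Esyt2 and Kntc1 (0.90, 0.89 and 0.89). Etv5 (Abhd4, Spdya and 5730409E04Rik at 0.87, 0.85 and 0.82) and Spry1 (AI597479, 1700010I14Rik and Dus2 at 0.78, 0.77 and 0.76) had less close partners.

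The other genes of the pathway show what surrounds the set. Of the other MAP kinase phosphatases, 5 of 6 were tested. 1 of them was called with IL4 in shGFP and none in shKDM1A cells, against 26.9% and 27.1% of all genes, and with shKDM1A 2 were called without and 3 with IL4, against 38.2% and 40.7%. With IL4, Dusp7 fell by 0.16 (SE 0.04, limma adjusted p = 0.0057) in shGFP cells. Dusp16, a phosphatase of JNK and p38, was lower with shKDM1A, at -0.38 (SE 0.06, limma adjusted p = 4.74e-05) without and -0.44 (SE 0.06, limma adjusted p = 1.12e-05) with IL4, while Dusp9 was higher by 0.21 in both (SE 0.04). Of the other feedback inhibitors, Spry4, Spry3 and Il17rd were too low to be tested. Spred3 was the only 1 of the 3 tested to pass in these 4 comparisons, higher with shKDM1A by 0.27 (SE 0.03, limma adjusted p = 7.20e-07) without and 0.19 (SE 0.03) with IL4.

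In the chain itself, 20 of 21 genes were tested. With IL4, 2 were higher and none lower in shGFP cells, against 26.9% of all genes called in either direction, and 4 were higher and 5 lower in shKDM1A cells, against 27.1%. Braf was lower in shKDM1A cells, at -0.22 (SE 0.05, limma adjusted p = 0.0026). Gab2, which encodes an adaptor, rose by 0.13 (SE 0.04, limma adjusted p = 0.0163) in shGFP cells and fell in shKDM1A cells, at -0.17 (SE 0.04, limma adjusted p = 0.0024), and its response differed between the lines by -0.31 (SE 0.05, limma adjusted p = 0.00299). With shKDM1A, 4 were higher and 3 lower without IL4, against 38.2% of all genes called, and 6 were higher and 5 lower with it, against 40.7%. Map2k1, which encodes the ERK kinase MEK1, stood out, higher by 0.63 (SE 0.03, limma adjusted p = 9.49e-12) without and 0.67 (SE 0.03, limma adjusted p = 4.11e-12) with IL4. Rasa1, which encodes a GTPase-activating protein of Ras, was higher by 0.29 and 0.26 (SE 0.03 each).

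Of 7 kinases that ERK activates, 2 rose and 1 fell with IL4 in both lines, against 26.9% and 27.1% of all genes called in either direction. Mknk2 and Rps6ka4 rose by 0.16 and 0.13 in shGFP cells, and Mknk1 fell by 0.11 (SE 0.03, limma adjusted p = 0.0271). In shKDM1A against shGFP cells, 1 of these kinase genes was higher and 2 were lower without IL4, against 38.2% of all genes called. With IL4 0 were higher and 3 lower, against 40.7%. Of 8 receptor genes above the chain, 5 were tested, and 4 rose with IL4 in shGFP and 3 in shKDM1A cells, against 13.1% and 13.6% of all genes. Csf1r, the receptor of CSF1, rose by 0.26 and 0.28 (SE 0.02 each), and Csf2rb, a subunit of the GM-CSF receptor, rose by 0.36 (SE 0.04, limma adjusted p = 9.23e-06) in shGFP cells. The response of Csf2rb was smaller in shKDM1A cells, with a difference of -0.31 (SE 0.06, limma adjusted p = 0.00776). Between the lines, 1 receptor gene was higher and 1 lower in shKDM1A cells without IL4, against 38.2% of all genes called. With IL4 1 was higher and 2 lower, against 40.7%. Csf1r was higher by 0.21 and 0.22 (SE 0.02 each). Tlr4 was lower without IL4 (-0.14, SE 0.05), and Csf2rb (-0.30, SE 0.04) and Insr (-0.20, SE 0.04) with it.

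Among 8 tested relatives of the ETS factors and SRF, 5 rose and none fell with IL4 in shGFP cells, against 13.1% and 13.7% of all genes. Erf, a repressor that ERK removes from the nucleus, rose by 0.35 (SE 0.03, limma adjusted p = 6.00e-08) and Elk3 by 0.19 (SE 0.03). In shKDM1A cells 3 rose and 1 fell, against 13.6% and 13.5%. With shKDM1A, 2 were higher and 3 lower without IL4, against 38.2% of all genes called, and 1 was higher and 4 were lower with it, against 40.7%. Elk1 was higher by 0.29 (SE 0.04, limma adjusted p = 9.97e-06) without IL4, and Srf, which binds the CArG box, was lower, at -0.16 (SE 0.03, limma adjusted p = 0.000325).

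The 20 other ERK target genes, all tested, went both ways. With IL4, 6 rose and 7 fell in shGFP cells, against 26.9% of all genes called in either direction, and 8 rose and 5 fell in shKDM1A cells, against 27.1%. Egr2, which is also an IL4 target, rose by 0.91 (SE 0.05, limma adjusted p = 3.94e-10) and Myc by 0.54 (SE 0.05), while Ier3 fell by 0.39 (SE 0.05) in shGFP cells. With shKDM1A, 5 were higher and 3 lower without IL4, against 38.2%, a share near that of the list, and 9 were higher and 5 lower with it, against 40.7%. Among genes of AP-1 subunits, Fosl1 was higher by 0.98 (SE 0.03, limma adjusted p = 7.57e-13) and Fosl2 by 0.84 (SE 0.03, limma adjusted p = 8.48e-12) without IL4, and Fos by 0.77 (SE 0.03, limma adjusted p = 1.42e-12) with IL4. The other 3 subunit genes of the list were named after their values were seen: Junb was higher by 0.16 (SE 0.03) without and 0.26 (SE 0.03) with IL4, Jun was lower, at -0.26 (SE 0.03) and -0.13 (SE 0.03), and Fosb did not pass, at 0.05 (SE 0.02) and 0.04 (SE 0.02). Egr1 was lower without IL4, at -0.29 (SE 0.03, limma adjusted p = 1.92e-06). The IL4 response of Fosl2 was lower in shKDM1A cells, with a difference of -0.55 (SE 0.05, limma adjusted p = 5.58e-06).

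**Figure D4:**
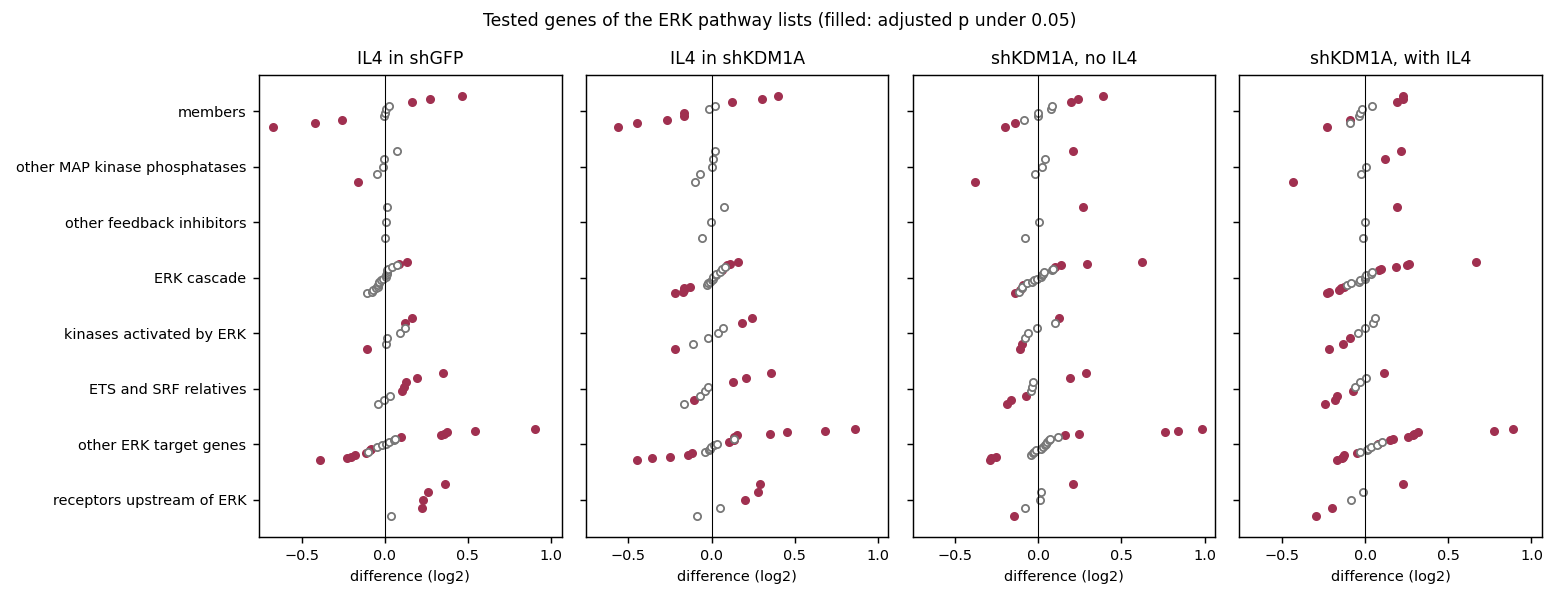
Differences on the log2 scale of every tested gene of the 8 pathway lists in the 4 comparisons, with filled points where the adjusted p was under 0.05. The 10 genes described here (top row) spread to both sides of 0, and in the 2 comparisons of the lines the points farthest to the right are Map2k1 in the chain and, among the other targets, Fosl1 with Fosl2 and Fos without IL4 and Fosl1 with Fos with IL4.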

How the data were processed

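RNA from RAW cells was sequenced in 16 libraries. According to the file header and the submitters' processing notes, reads were aligned to mm9 with HISAT2 and Bowtie2, counted with HOMER on exons of RefSeq genes on both strands with 1 row per gene, and passed to DESeq2. The deposited values are log2 values per library, normalised by the authors' pipeline with a transformation that is not given in the sources used here, and no counts per library were used. Since strand was not used, antisense reads would be included, and no other gene of the table overlaps a member on either strand.

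Groups were taken from the labels. The deposited values were fitted with limma 3.58.1 in R 4.3.3 in 1 model of 4 groups, over the 12905 genes that reached a value of 1 in 4 or more libraries, and p-values were adjusted by Benjamini and Hochberg's method over these genes in each comparison. The procedure was tested on simulated data: of 200 changed genes among 12905, 200 were recovered with 14 false calls for IL4 in shGFP cells. The sizes of the differences put in are not given here, and recovery of smaller differences was not tested. Alternatives were other filters, scalings, variance models, a replicate block, a fit of the groups compared alone and leaving out each library.

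The authors' comparison columns of the RAW table, and the BMDM table, which is made up of such columns alone (fold change, p and adjusted p per comparison), were not used beyond locating the genes. The members and gene lists were chosen with earlier results of these data known. Named were the 10 genes and Kdm1a, from each other list up to 2 genes with the largest rise and 2 with the largest fall per comparison among those called, and the 3 genes most like each member, of which not all are reported here. Genes listed at 0, or as too low to be tested, and Lck were named after their values were seen.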

Additional observations from a re-analysis of the deposited data

Results flagged for a closer look

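3 results stood apart. Spry1 in shKDM1A IL4 library 3, at 1.17, lay farther from the other 3 libraries of its group, all at 1.16, than Dixon's test allows. It was 1 of 40 groups of 4 libraries looked at, and chance gives such a result in about 1 of 20 groups. The IL4 response differed between the lines by -0.16 for Dusp4 (limma adjusted p = 0.0469) and by -0.17 for Etv5 (limma adjusted p = 0.0381), by the test of the difference itself. For Dusp4 both lines rose, and for Etv5 the shKDM1A line fell while the shGFP groups overlapped.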

How the results depend on the processing

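Of the 26 called differences of the members, 22 stayed called under every alternative run, and none of the 26 changed sign. The 4 others were Spred2 for IL4 in shKDM1A cells, Etv5 for shKDM1A with IL4 and both differences in the response to IL4. Spred2 lost its call without the filter on low values (adjusted p = 0.102) and with the compared groups fitted alone (0.107), and Etv5 lost it under the same settings (0.0937 and 0.104) and with median centring (0.06), and the cause was not tested. Etv5 for shKDM1A without IL4, not called in the report, passed with the compared groups fitted alone (0.0139). Without the filter on low values, none of the 10 members passed for the response to IL4 (0 in limma, with adjusted p values of 0.125 for Dusp4 and 0.105 for Etv5), and 431 in place of 791 genes did. More genes were then tested. With median centring 1 member and 843 of all genes passed. Leaving out 1 library gave 0 to 3 members here (530 to 1104 of all genes), 6 for IL4 in shGFP cells (2975 to 3202), 7 to 8 for IL4 in shKDM1A cells (3018 to 3539), 5 to 6 for shKDM1A without (4419 to 4592) and 4 to 6 with IL4 (4697 to 5214). Signs turned only in differences that were never called: with quantile normalization Spred2 for IL4 in shGFP cells (-0.0104), Spry2 for shKDM1A without IL4 (-0.0369) and Dusp5 for the response (0.000283), with median centring Dusp5 (0.00598) and Spred1 (0.000478) for the response, and on leaving out 1 library Spred2 (-0.0203 to 0.0148), Etv5 (-0.0136 to 0.0457), Dusp5 (-0.000131 to 0.0428) and Spry1 (-0.0129 to 0.00626) for IL4 in shGFP cells, Dusp5 (-7.10e-05 to 0.0406) for IL4 in shKDM1A cells, Spry2 (-0.0116 to 0.0145) and Spry1 (-0.0140 to 0.00511) for shKDM1A without IL4, and Dusp5 (-0.0234 to 0.0195) and Spred1 (-0.0296 to 0.0103) for the response. The deviations of same-numbered libraries had correlations of -0.09 to 0.27. Of these 16 values 1 was over 0.1, that of number 1 for IL4 in shKDM1A cells. With the number as a replicate block 6, 8, 6, 5 and 2 members passed (3430, 3459, 4882, 5212 and 732 of 12905 genes), with Etv5 added for shKDM1A without IL4 (adjusted p = 0.0262). A pseudocount and count-based tools were not run, since the values are on a log scale already.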
